A study of Homo sapiens with 12 samples.

Results

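NEAT1, MALAT1 and KCNQ1OT1 are 3 long RNAs that code for no protein and stay in the nucleus. They were matched by symbol to the Ensembl identifiers of the deposited table, and all 3 were found among its 43876 rows. Their levels were measured by RNA-seq in MV4-11 cells, a human acute myeloid leukemia line that carries an internal tandem duplication in the receptor kinase gene FLT3 (FLT3-ITD). Treatment lasted 24 h, with 20 nM of a drug that the labels call mitoxantrone and the study mitoxantrone-liposome (Mito-Lipo, the study's name, kept here), with 25 nM of the FLT3 inhibitor gilteritinib (Gilteritinib), with 20 nM of each drug together (Com), or with the solvent DMSO. Each condition had 3 libraries, 12 in all, and every comparison is within this 1 cell line. Nothing in the labels says that libraries of a condition came from separate cultures, so p-values measure the spread between these libraries, which may be technical. The dose of gilteritinib differed between Com and Gilteritinib.

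NEAT1 is the scaffold of paraspeckles, nuclear bodies that form around its long transcript while it is being made and that hold RNA-binding proteins such as SFPQ and NONO. A short transcript from the same start carries a poly(A) tail, while the long transcript ends in a triple helix instead. MALAT1, a neighbour on the same chromosome, gathers in nuclear speckles, where splicing factors are stored, and its end is made in the same way: RNase P cuts the precursor before a small tRNA-like RNA and leaves a triple-helical end. KCNQ1OT1 is transcribed from the paternal chromosome, antisense to the potassium channel gene KCNQ1, and silences neighbouring imprinted genes in cis.

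NEAT1 (ENSG00000245532) lies on the plus strand at chr11:65422774-65445540 (GRCh38, GENCODE release 29), and MALAT1 (ENSG00000251562) follows on the same strand at chr11:65497688-65506516, 52147 bases beyond the end of NEAT1. Both are annotated as lincRNA. KCNQ1OT1 (ENSG00000269821) is annotated as antisense, on the minus strand at chr11:2608328-2699994, in 1 exon of 91667 nt inside KCNQ1, and it covers 1 exon of KCNQ1 over 121 bases. GENCODE gives NEAT1 8 transcripts and MALAT1 17. The table holds 1 value per gene, so the long and the short NEAT1 transcript could not be told apart. The libraries do not keep strand, so reads of KCNQ1OT1 and of KCNQ1 could not be told apart where they overlap, and neither could reads of MALAT1 and of an antisense RNA over it.

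The 3' ends of these RNAs are shown because the libraries were primed at poly(A), and the mature long NEAT1 and MALAT1 carry no such tail. The first line is the stretch of the 8708 nt MALAT1 transcript that ends where the tRNA-like RNA begins (chr11:65505977-65506116), and the second is the tRNA-like RNA itself (chr11:65506117-65506173). Next come the end of the long NEAT1 transcript (22743 nt, chr11:65445401-65445540) and the end of a short one (2994 nt, chr11:65426434-65426513). The last is the longest run of A in KCNQ1OT1 with its flanks (chr11:2610677-2610785, minus strand). Capitals mark the A-rich end of MALAT1 and of the long NEAT1 transcript, the poly(A) signal AATAAA of the short one, and the run of A in KCNQ1OT1.
MALAT1 end before the tRNA-like RNA: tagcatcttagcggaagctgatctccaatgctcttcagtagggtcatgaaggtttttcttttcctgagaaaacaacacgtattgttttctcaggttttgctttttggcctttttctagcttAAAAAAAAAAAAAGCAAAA
MALAT1 tRNA-like RNA: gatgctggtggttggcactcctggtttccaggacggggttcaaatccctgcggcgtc
NEAT1 long transcript end: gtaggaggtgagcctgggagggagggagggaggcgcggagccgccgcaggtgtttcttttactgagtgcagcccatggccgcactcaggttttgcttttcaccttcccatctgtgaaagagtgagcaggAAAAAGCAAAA
NEAT1 short transcript end: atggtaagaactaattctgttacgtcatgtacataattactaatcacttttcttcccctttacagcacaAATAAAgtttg
KCNQ1OT1 longest run of A: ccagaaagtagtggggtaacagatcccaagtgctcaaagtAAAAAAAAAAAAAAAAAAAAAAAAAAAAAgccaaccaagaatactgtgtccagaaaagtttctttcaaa
The A-rich ends of MALAT1 and NEAT1 both close with the letters GCAAAA, and a stretch rich in T precedes each. Runs of at least 8 A inside the transcript numbered 6 in the long NEAT1 transcript (longest 22), 2 in MALAT1 (longest 13) and 33 in KCNQ1OT1 (longest 29), and there were 0 in the short NEAT1 transcript. Where cDNA synthesis began in each transcript was not tested.

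Of the 3 RNAs, MALAT1 was the one with promoters in the RefSeq table used here (GRCh38.p14), which give 250 bases before and 50 after a start site. It has 2 there, and the one below (chr11:65498795-65499094, plus strand) is shown because it holds the letters TATAAA, in capitals, 30 bases before its start site.
MALAT1 promoter: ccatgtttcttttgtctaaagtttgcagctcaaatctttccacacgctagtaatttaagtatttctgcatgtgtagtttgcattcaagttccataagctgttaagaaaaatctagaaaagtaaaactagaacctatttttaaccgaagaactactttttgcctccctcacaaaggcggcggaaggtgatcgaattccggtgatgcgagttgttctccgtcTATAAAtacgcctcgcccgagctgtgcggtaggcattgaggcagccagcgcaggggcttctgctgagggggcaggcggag
The letters TATAAA were found on the gene's own strand in 7.33% of the 35116 promoters in that table, and on either strand in 11.5%. The match is a description of the letters and was not tied to any measurement.

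The values are FPKM, fragments per kilobase of gene set against all mapped fragments. FPKM divides by gene length, but levels of different genes can be set side by side only roughly. The libraries were primed at poly(A), the NEAT1 value holds transcripts of unlike length, and the gene lengths the authors used are not known. The depth recovered from the FPKM steps was 31.7 to 41.3 M fragments per library. Of 11 markers of myeloid leukemia cells, 10 reached 1 FPKM in each of the 12 libraries, with FLT3 at 132 to 171, while the eleventh, ITGAM, was at 0.503 to 4.82. Of 12 markers of other cell types in the table, 9 stayed under 1 in every library, while the endothelial marker PECAM1 was at 9.17 to 25.1 and the globin HBB at 0 to 2.85. Their summed level was 11.7 to 29.5 FPKM per library, against 935 to 1774 for the myeloid markers.

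MALAT1 had the highest FPKM of 9979 long non-coding genes in each of the 12 libraries. It ranked between 28 and 80 among all rows of the table, with a mean of 610 FPKM. NEAT1 had a mean of 32.9 FPKM and ranked between 18 and 81 among the long non-coding genes. KCNQ1OT1 had a mean of 2.19 FPKM and ranked between 1193 and 1688 among them. With GENCODE exon lengths, which may not be those the authors used, this is about 154056 to 263101 fragments per library for MALAT1, 14940 to 50192 for NEAT1 and 5327 to 11991 for KCNQ1OT1. The counting error was therefore 0.195 to 0.255% for MALAT1, 0.446 to 0.818% for NEAT1 and 0.913 to 1.37% for KCNQ1OT1. It covers counting only, since amplified fragments without molecular identifiers are not independent molecules, and it was far below the spread between libraries of a condition.

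MALAT1 was higher in the Mito-Lipo libraries than in all others. Its FPKM was 724, 848 and 746 in Mito-Lipo replicates 1, 2 and 3. In DMSO it was 610, 501 and 578, in Gilteritinib 537, 544 and 484, and in Com 704, 541 and 503. The lowest Mito-Lipo library was above the highest of the other 9, although Com replicate 1 came close to it. Of all genes tested, 7.68% had every Mito-Lipo library above those of DMSO, 6.11% above those of Com and 9.12% above those of Gilteritinib. The share above all 9 was not computed. The Mito-Lipo mean was 773 ± 66.5, that of Com 583 ± 107, that of DMSO 563 ± 55.9 and that of Gilteritinib 522 ± 32.8 (SD, n = 3). In that order, the libraries of Com and DMSO overlapped and so did those of DMSO and Gilteritinib, while those of Mito-Lipo and Com did not.

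NEAT1 varied more, over a 3.15-fold range against 1.75-fold for MALAT1. Its FPKM was 54.7, 48.5 and 30.0 in Mito-Lipo, 44.8, 21.9 and 26.0 in DMSO, 50.9, 23.9 and 22.1 in Com, and 30.1, 24.5 and 17.3 in Gilteritinib, for replicates 1, 2 and 3. Replicate 1 had the highest value of its condition in each of the 4 conditions. Mito-Lipo had a mean of 44.4 ± 12.8, Com of 32.3 ± 16.1, DMSO of 30.9 ± 12.2 and Gilteritinib of 24.0 ± 6.38 (SD, n = 3), and the libraries of all conditions overlapped.

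The KCNQ1OT1 values separated by replicate number. Its FPKM was 3.24, 2.29 and 1.76 in Mito-Lipo, 2.99, 1.73 and 1.76 in DMSO, 2.92, 1.79 and 1.72 in Com, and 2.43, 1.99 and 1.60 in Gilteritinib. The 4 libraries numbered 1 lay at 2.43 to 3.24 FPKM, above all 8 libraries numbered 2 or 3, which lay at 1.60 to 2.29. The means were 2.43 ± 0.753 in Mito-Lipo, 2.16 ± 0.715 in DMSO, 2.14 ± 0.670 in Com and 2.01 ± 0.413 in Gilteritinib (SD, n = 3), with all conditions overlapping. The plot of levels by condition shows the same 12 values for each RNA.

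**Figure D1:**
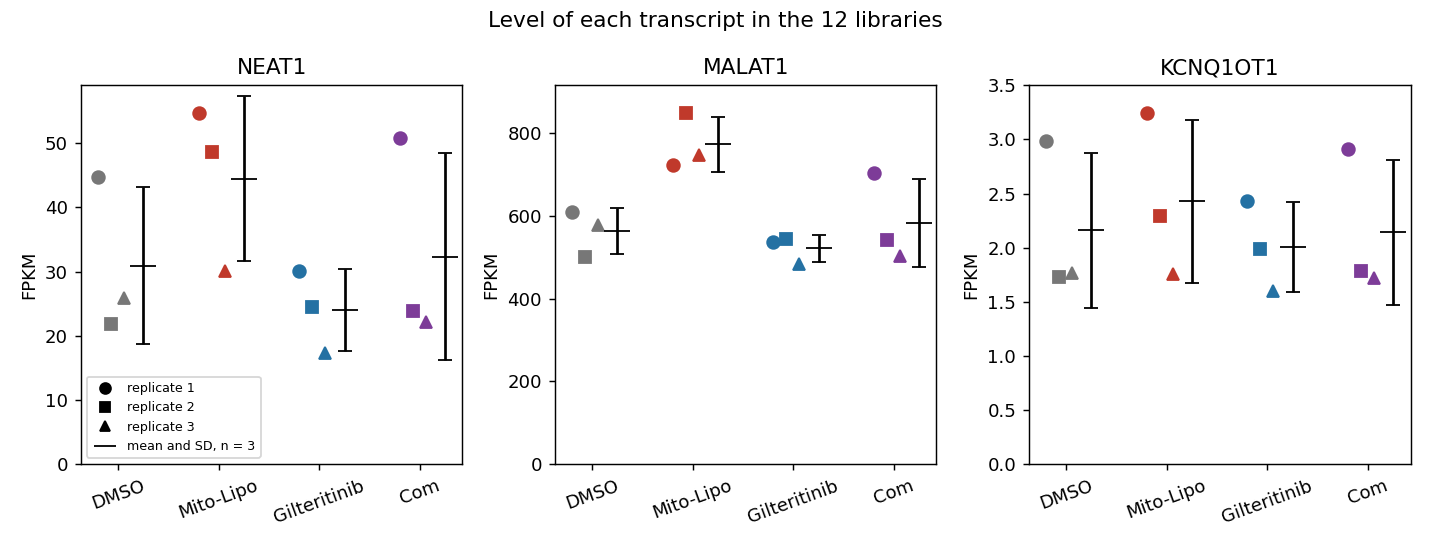
FPKM of NEAT1, MALAT1 and KCNQ1OT1 (vertical axes, starting at 0) in the 4 conditions, with a marker for each library by its replicate number and the mean and SD (n = 3) beside them. The 3 Mito-Lipo libraries of MALAT1, from 724 to 848, lie above its other 9, and the 4 libraries numbered 1 of KCNQ1OT1 lie above its other 8.

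The comparisons between conditions were tested with limma on log2(FPKM + 1) over the 18574 genes that reached 1 FPKM in 3 or more libraries, and fold changes are on that scale. No member passed an adjusted p of 0.05 in any of the 6 comparisons. The background was as low: of all genes tested, 0.00538% (1 gene) passed in Com against DMSO and 0% (0 genes) in each of the other 5 comparisons, in the interaction and in the F test over the 4 conditions. At an unadjusted p under 0.05, the share of all genes was 1.67% for Com and 7.9% for Mito-Lipo and 1.86% for Gilteritinib when each was set against DMSO. It was 5.53% in Com against Mito-Lipo, 1.63% in Com against Gilteritinib and 9.52% in Gilteritinib against Mito-Lipo. The interaction had 2.91% and the F test 5.04%.

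In Mito-Lipo against DMSO, which asks what that drug did alone, MALAT1 was 1.37-fold higher, a log2 difference of 0.46 (SE 0.13, 95% interval 0.16 to 0.75). Its limma p was 0.00597 and its adjusted p 0.492. Its libraries did not overlap, as for 7.68% of all genes in that direction. NEAT1 had a log2 difference of 0.53 (SE 0.36, interval -0.27 to 1.33, adjusted p = 0.807 with limma). KCNQ1OT1 had one of 0.12 (SE 0.22, interval -0.36 to 0.60, adjusted p = 0.96 with limma). The median of all genes tested was 0.03.

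In Com against Mito-Lipo, MALAT1 had a log2 difference of -0.42 (SE 0.13, interval -0.71 to -0.12), with a limma p of 0.00991 and an adjusted p of 0.888. The libraries did not overlap, as for 6.11% of all genes in that direction. NEAT1 was at -0.51 (SE 0.36, adjusted p = 0.96 with limma) and KCNQ1OT1 at -0.12 (SE 0.22, adjusted p = 0.998 with limma). In Gilteritinib against Mito-Lipo the differences were wider, with MALAT1 at -0.56 (SE 0.13, interval -0.86 to -0.27, limma p 0.00152, adjusted p 0.252) and its libraries again apart, as for 9.12% of all genes. NEAT1 was at -0.85 there (SE 0.36, interval -1.65 to -0.05, limma p 0.0388, adjusted p 0.49), and KCNQ1OT1 at -0.18 (SE 0.22, interval -0.65 to 0.30).

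Com and DMSO were close in all 3 RNAs. The log2 difference was 0.03 for NEAT1 (interval -0.77 to 0.83), 0.04 for MALAT1 (interval -0.26 to 0.33) and -0.0059 for KCNQ1OT1 (interval -0.48 to 0.47), and limma gave each of them an adjusted p of 1. The NEAT1 interval leaves room for a change in either direction of more than 1.5-fold, so its level in Com is known less well than that of MALAT1. Without Com replicate 1, NEAT1 was at -0.34 in this comparison. Gilteritinib against DMSO gave -0.32, -0.11 and -0.06 for NEAT1, MALAT1 and KCNQ1OT1, and Com against Gilteritinib gave 0.35, 0.15 and 0.05. The interaction, which is the difference between Com and Gilteritinib less that between Mito-Lipo and DMSO, was -0.19 (SE 0.51) for NEAT1, -0.31 (SE 0.19) for MALAT1 and -0.07 (SE 0.31) for KCNQ1OT1, and limma gave an adjusted p of 0.9997 for each. These comparisons share libraries, so their values are not independent of each other.

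**Figure D2:**
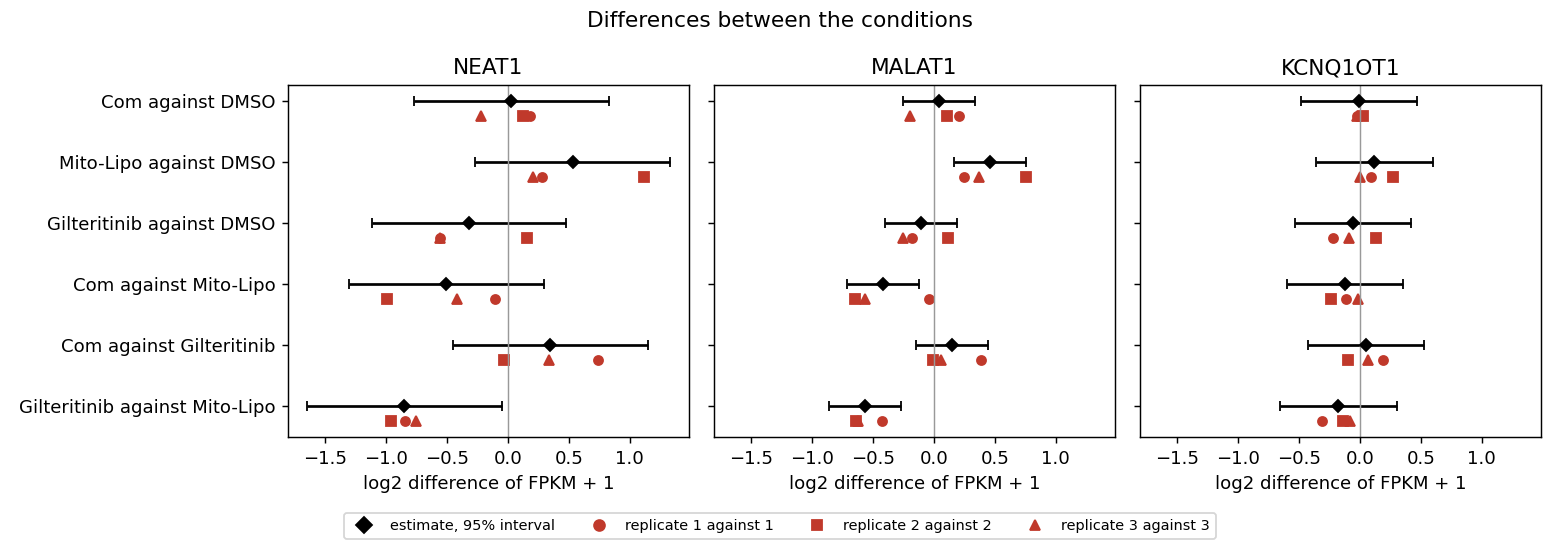
Log2 differences of FPKM + 1 (horizontal axes) for the 6 comparisons of conditions, with the limma estimate and its 95% interval as diamonds and bars, and the difference between libraries of the same replicate number as red markers. For MALAT1 the interval excludes 0 in the 3 comparisons with Mito-Lipo, and for NEAT1 in Gilteritinib against Mito-Lipo, before adjustment over all genes.

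Libraries of the same replicate number deviated together, so the differences within each number are given as well. NEAT1 differed by 0.28, 1.11 and 0.20 between Mito-Lipo and DMSO within numbers 1, 2 and 3, and MALAT1 by 0.25, 0.76 and 0.37. Both were higher in all 3 pairs. In Gilteritinib against Mito-Lipo, NEAT1 differed by -0.84, -0.96 and -0.76 and MALAT1 by -0.43, -0.64 and -0.62. In Com against Mito-Lipo, NEAT1 differed by -0.10, -0.99 and -0.42 and MALAT1 by -0.04, -0.65 and -0.57, so the pair numbered 1 showed almost no difference in MALAT1. KCNQ1OT1 differed by 0.09, 0.27 and -0.0029 in Mito-Lipo against DMSO.

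With the replicate number as a block, the limma p of NEAT1 was 0.0166 for Mito-Lipo against DMSO, 0.0213 in Com against Mito-Lipo and 0.00115 in Gilteritinib against Mito-Lipo, and its adjusted p was 0.217, 0.343 and 0.0729. For MALAT1 the adjusted p with the block was 0.159, 0.259 and 0.0771 in the same order. No member passed. At an unadjusted p under 0.05 with the block, the share of all genes was 15.9%, 12.2% and 18% in these 3 comparisons. In the F test over the 4 conditions, limma gave an adjusted p of 0.9999 for NEAT1, 0.782 for MALAT1 and 0.9999 for KCNQ1OT1, and with the block 0.249, 0.230 and 0.711, where 12.6% of all genes had an unadjusted p under 0.05.

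With replicates 2 and 3 only, a choice made after seeing that replicate 1 stood apart, MALAT1 passed in the 3 comparisons with Mito-Lipo. It was at 0.56 against DMSO (adjusted p = 0.0323), and Com was at -0.61 (adjusted p = 0.0271) and Gilteritinib at -0.63 (adjusted p = 0.0236) against Mito-Lipo, from limma. In that fit 6.41%, 6.13% and 6.63% of all genes passed, and MALAT1 is read against that share. NEAT1 was at 0.66, -0.71 and -0.86 in the same comparisons and did not pass (adjusted p 0.197, 0.170 and 0.109).

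Whole classes of annotated genes moved with these levels from library to library. Sense-intronic genes are annotated inside introns on the strand of their host, so reads of unspliced host RNA fall on them. The median deviation of 399 of them from their mean over the libraries was 0.26, 0.17 and -0.14 in Mito-Lipo replicates 1, 2 and 3, and -0.24 in Gilteritinib replicate 3, the lowest. It was 0.02 to 0.26 in the libraries numbered 1 and -0.24 to 0.17 in the others. Over the 12 libraries its Pearson correlation with NEAT1 was 0.94, with KCNQ1OT1 0.95 and with MALAT1 0.65. The same measure gave 0.94, 0.92 and 0.67 for lincRNA genes and 0.93, 0.92 and 0.68 for antisense genes. Protein-coding genes gave 0.75, 0.86 and 0.33, but their median moved less, from -0.04 to 0.05 over the libraries. It moved from -0.24 to 0.26 for sense-intronic, -0.14 to 0.19 for antisense and -0.12 to 0.17 for lincRNA genes. The points share depth and library, and these correlations are a description.

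Class medians are given by condition as well, without a test. The sense-intronic median deviation was 0.26, 0.17 and -0.14 in Mito-Lipo replicates 1, 2 and 3 and 0.19, -0.15 and -0.09 in DMSO. Mito-Lipo was thus above DMSO in numbers 1 and 2 and below it in number 3. For Mito-Lipo against DMSO, the median log2 difference was 0.11 over the sense-intronic genes, 0.08 over 1616 antisense genes and 0.07 over 744 lincRNA genes, against -0.00019 over 10506 protein-coding genes. The NEAT1 and MALAT1 differences of 0.53 and 0.46 were larger than these medians, and that of KCNQ1OT1, 0.12, was close to them. Of all genes tested, 97.5%, 96.2% and 69.3% had a lower difference than NEAT1, MALAT1 and KCNQ1OT1. The share within each class was not computed. Adding 1 to FPKM shrinks differences of low genes such as KCNQ1OT1, with a mean of 2.19 FPKM, so these sizes are not on equal terms. With the sense-intronic median of each library as a covariate, a fit added after seeing this, the NEAT1 difference was 0.25 (SE 0.11, adjusted p = 0.372 with limma), that of MALAT1 0.39 (SE 0.11, adjusted p = 0.25 with limma) and that of KCNQ1OT1 -0.04 (SE 0.10). In Gilteritinib against Mito-Lipo the covariate left NEAT1 at -0.42 and MALAT1 at -0.47, and put KCNQ1OT1 at 0.06. MALAT1 in Mito-Lipo replicate 3 was high where the sense-intronic median was low. The part of this class in the values of the 3 RNAs was not tested beyond that fit.

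The 3 RNAs followed each other over the libraries, NEAT1 and MALAT1 with r = 0.83, NEAT1 and KCNQ1OT1 with 0.90, and MALAT1 and KCNQ1OT1 with 0.53. After the mean of each replicate number was subtracted, r was 0.95, 0.89 and 0.77. MALAT1 had 13.2 to 24.9 times the FPKM of NEAT1 in Mito-Lipo, 13.6 to 22.9 times in DMSO, 13.8 to 22.7 times in Com and 17.9 to 27.9 times in Gilteritinib. The lowest ratio of each condition was that of replicate 1. These are ratios of FPKM, not of molecules. The log2 ratio of NEAT1 to MALAT1 was not found to differ between the 4 conditions (exact permutation test over 369600 arrangements, p = 0.809). With arrangements kept within replicate numbers, the exact p was 0.253. The means were -4.13 ± 0.44 in Mito-Lipo, -4.21 ± 0.41 in DMSO, -4.22 ± 0.39 in Com and -4.42 ± 0.30 in Gilteritinib (SD, n = 3).

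Among 8765 (for KCNQ1OT1 8766) genes with a symbol and a mean FPKM of at least 5, those most like NEAT1 over the 12 libraries were TUT4, which adds uridines to RNA (r = 0.98), GIPR, a hormone receptor (0.97), and ZNF544, a zinc finger gene (0.97). With replicate means subtracted they were ZNF544, RNF213 and PCGF3 (0.98, 0.98 and 0.97). Those most like MALAT1 were ATP6V0A1, a proton pump subunit, the adenosine receptor gene ADORA2B and the cholesterol transporter gene NPC1 (0.96, 0.95 and 0.94), and with replicate means subtracted the RNA editing gene ADARB1, the antisense gene INHBA-AS1 and the ATP-gated channel gene P2RX1 (each 0.98). Those most like KCNQ1OT1 were RNF213, the splicing regulator RBM5 and MIR646HG (each 0.98), and with replicate means subtracted TSC1, KANSL3 and STAG3L5P (0.98, 0.98 and 0.97). No gene was named for more than 1 RNA by the same measure. INHBA-AS1 is antisense, and without strand its reads cannot be told from those of a gene it overlaps.

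No gene for a protein partner of NEAT1 passed the test, and only RNA was measured. All 8 genes for proteins known to be essential for paraspeckles were tested, and their log2 differences lay between -0.16 and 0.16 over the 6 comparisons. In Mito-Lipo against DMSO 7 of 8 had a lower mean, with a median of -0.09 against 0.03 over all genes. In Com against DMSO 8 of 8 had one, with a median of -0.06 against -0.01. Over protein-coding genes alone, the medians of these 2 comparisons were -0.00019 and -0.0093. SFPQ, which binds NEAT1 along its length, had a mean of 187 ± 4.19 FPKM in DMSO and 174 ± 5.18 in Mito-Lipo (SD, n = 3), a log2 difference of -0.10. Its partner NONO was at -0.02, and HNRNPK, which acts on the choice between the short and the long transcript, at -0.11. HNRNPH3 was at -0.15, DAZAP1 at -0.12, the chromatin remodeler SMARCA4 at -0.08, and RBM14 at 0.08. NEAT1 had its highest mean in Mito-Lipo, where 7 of these 8 means were below DMSO. In Com, where 8 of 8 were below DMSO, NEAT1 was at 0.03 against DMSO. A link between NEAT1 and these genes was not tested.

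Of 34 genes for other paraspeckle proteins, 29 were tested and 0 passed in any comparison. Compared with DMSO, 18 were lower in Mito-Lipo and 11 were higher, with a median of -0.02. Of the 29, 2 had an unadjusted p under 0.05 in limma, against 7.9% of all genes. They were NUDT21, a subunit of the 3' end cleavage factor, at -0.23 and the splicing factor SRSF10 at -0.18. NUDT21 had 59.1 FPKM in DMSO, 50.2 in Mito-Lipo, 59.9 in Gilteritinib and 57.5 in Com. HNRNPA1 and HNRNPF, the most abundant, were at -0.08 and -0.14, and SRSF10 and HNRNPH1 had the smallest p in Com against DMSO, at -0.09 and -0.10. Of the 5 not tested, HNRNPR was listed at 0 to 0.0561 FPKM and TAF15 at 0.0407 to 0.149, which are low for genes that most cells use.

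Of 33 genes for proteins of nuclear speckles, where MALAT1 gathers, 32 were tested and 0 passed in any comparison. Of these, 23 were lower and 9 higher in Mito-Lipo than in DMSO, with a median of -0.04, and in Com against DMSO 29 were lower and 3 higher, with a median of -0.05. The kinase gene SRPK1 was at -0.21 in Mito-Lipo against DMSO. It was the only 1 of the 32 with an unadjusted p under 0.05 there, against 7.9% of all genes. The splicing factor genes TRA2B and SRSF3 were the most abundant, at 129 and 126 FPKM, and were at -0.0034 and -0.12 in Mito-Lipo against DMSO. SRSF7 and PNN had the smallest p in Com against DMSO, at -0.14 and -0.24. CLK2 was listed at 0 to 0.0308 FPKM and was not tested.

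RNase P and RNase Z cut out the tRNA-like RNA printed above, and 13 of 15 genes listed for this 3' end were in the table and tested. They include TRNT1 and METTL16, which do not make these cuts. METTL16 was at -0.0020 in Mito-Lipo against DMSO. All 13 had a lower mean in Mito-Lipo than in DMSO, and 0 passed. Their median was -0.09, against 0.03 over all genes and -0.00019 over protein-coding genes. At an unadjusted p under 0.05, 3 of 13 were lower, against 2.94% of all genes lower and 7.9% in both directions. They were the RNase P subunits RPP25 at -0.41 and RPP40 at -0.25, and ELAC2, which encodes RNase Z, at -0.20. RPP25 had 17.5 FPKM in DMSO, 12.9 in Mito-Lipo, 14.7 in Gilteritinib and 14.5 in Com. In Com against DMSO 10 were lower and 3 higher, with ELAC2 at -0.20 and RPP25 at -0.26. TRNT1, which adds the CCA end to tRNAs, was at -0.13 in Mito-Lipo against DMSO. The RNA subunit RPPH1 was not analysed here.

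**Figure D3:**
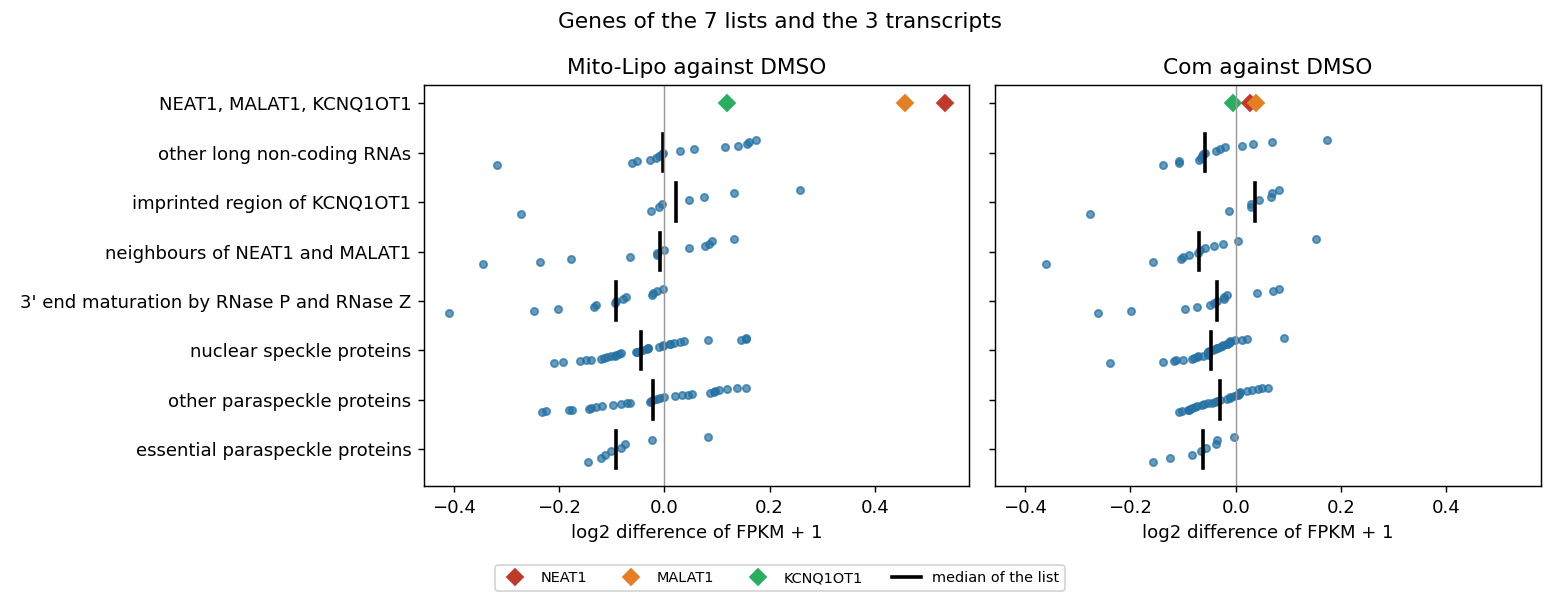
Log2 differences of FPKM + 1 (horizontal axes) of Mito-Lipo (left) and of Com (right) from DMSO for the tested genes of 7 lists (points, 1 per gene, with the list median as a black bar) and for the 3 RNAs (diamonds). On the left the diamonds of NEAT1 and MALAT1, at 0.53 and 0.46, lie to the right of every list gene, and on the right all 3 diamonds lie within 0.04 of 0.

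The genes around NEAT1 and MALAT1 were split in direction in Mito-Lipo. Of 12 neighbours tested, 5 were higher and 7 lower in Mito-Lipo against DMSO, with a median of -0.0076, and 0 passed in any comparison. FRMD8, which lies before NEAT1, was at 0.08, DPF2 at -0.0013, and LTBP3, a binder of latent TGF-beta, at -0.18. The DNA polymerase subunit gene POLA2 was at -0.24 and SIPA1 at -0.35, while EHBP1L1 was highest at 0.13. ZNRD2, FAM89B, MAP3K11, PCNX3 and RELA lay between -0.07 and 0.09. EHBP1L1 was, like MALAT1, highest in Mito-Lipo, with 16.8 FPKM in DMSO, 18.5 in Mito-Lipo, 14.9 in Gilteritinib and 14.9 in Com. It had an unadjusted p under 0.05 in both comparisons with Mito-Lipo as the reference. It was the only 1 of the 12 there, where 5.53% (Com) and 9.52% (Gilteritinib) of all genes had such a p. The microRNA gene MIR612, which lies in NEAT1, and the antisense gene TALAM1 were not analysed here.

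KCNQ1, the host gene of KCNQ1OT1, had means of 4.0 FPKM in DMSO, 4.05 in Mito-Lipo, 3.65 in Gilteritinib and 4.18 in Com, and a log2 difference of -0.0045 in Mito-Lipo against DMSO. Of the 8 genes of this imprinted region that were tested, 4 were higher and 4 lower in that comparison, with a median of 0.02, and 0 passed in any comparison. TSPAN32, a tetraspanin gene, was at 0.26, CARS1 at 0.13, OSBPL5 at 0.08, CD81 at 0.05, TSSC4 at -0.01 and NAP1L4 at -0.03. The growth inhibitor CDKN1C, which KCNQ1OT1 is known to silence on the paternal chromosome, was listed at 0 to 0.0881 FPKM, and H19 and IGF2 at 0 to 0.0123 and 0 to 0.0051, so no difference is given for them. HNRNPR and CLK2 were also listed at 0 in some libraries, and whether a value of 0 in this table means that the RNA was absent was not tested.

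Of 18 other long non-coding RNAs, 15 were tested and 0 passed in any comparison. Against DMSO, 7 were higher and 8 lower in Mito-Lipo, with a median of -0.0023. In Gilteritinib against Mito-Lipo 13 were lower and 2 higher, with a median of -0.16 against -0.06 over all genes, of which 36.1% were higher. The median there was -0.12 over lincRNA, -0.13 over antisense and -0.16 over sense-intronic genes. NORAD, a cytoplasmic RNA, had a mean of 59.98 FPKM and was at -0.01 in Mito-Lipo against DMSO, and DLEU2, with 35.4 FPKM, was at 0.03. HCG11 and EBLN3P, with the smallest p in Com against DMSO, were at -0.14 and -0.11 there. HOTAIRM1, a myeloid RNA in the HOXA cluster, was at 0.73 in Com against Gilteritinib (limma p 0.00838, adjusted p 0.9999). It was the only 1 of the 15 with an unadjusted p under 0.05 there, against 1.63% of all genes. Against DMSO it was at -0.56 in Gilteritinib and at 0.17 in Com. Its level was low, at 0.734 to 3.01 FPKM over the libraries.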

How the data were processed

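RNA of MV4-11 cells was sequenced in 12 libraries, 3 per condition. The authors deposited 1 table of FPKM per gene. Per the labels, libraries were amplified by Geo-seq, which primes at poly(A), and extracted with a miRNeasy kit, while the methods name TRIzol. The submitters' processing notes name Bowtie 0.12.9, Cufflinks 2.1.1, HTSeq, DESeq2 and the mouse build mm10, although all 43876 identifiers are human. The table's own build is therefore not known, and 40169 identifiers were found in GENCODE release 29, which gave positions, types and exon lengths.

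FPKM were used as log2(FPKM + 1). Genes that reached 1 FPKM in 3 or more libraries (18574) were tested with limma 3.58.1 in R 4.3.3, with 1 mean per condition, a trend of variance with mean, and p-values adjusted by Benjamini-Hochberg per comparison at 0.05. Depth was searched as the number of fragments that makes FPKM of genes under 600 nt whole within 0.03 (95.9 to 96.4% of values), with Python 3.11.15. The limma and depth steps were tested on simulated data. All 18 same-numbered pairs of libraries correlated in deviations from condition means (r 0.165 to 0.657). Pairs of unlike number and condition had r from -0.562 to 0.434, so the 2 ranges overlapped. What a replicate number stands for is not given. Members and lists were chosen with earlier results of these data known. Named genes were, per RNA, the 3 most alike by each measure, from each list the 2 with the smallest p in Com against DMSO and the 2 most abundant, and all with a mean FPKM of at least 1 among the essential paraspeckle genes and both loci. NUDT21, SRPK1, RPP40, HOTAIRM1, HNRNPR, TAF15, CLK2, CDKN1C, H19 and IGF2 were named after their values were seen. Some genes of the lists are not reported here by name. Alternatives were a pseudocount of 0.1, no filter or one at a mean of 5, quantile normalization, scaling by median ratios, no trend, the replicate block, only the libraries compared, each library left out, and, added after seeing the data, replicates 2 and 3 only and a sense-intronic covariate.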

Additional observations from a re-analysis of the deposited data

How the results depend on the processing

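NEAT1 and KCNQ1OT1 stayed above an adjusted p of 0.05 under each setting in which they were tested, and MALAT1 under each but replicates 2 and 3 only. KCNQ1OT1 was not tested at a mean FPKM of at least 5, which it does not reach. The ratio of NEAT1 to MALAT1 kept its side of the threshold under each (exact permutation p 0.502 to 0.983 with 1 library left out). The replicate block left the members' differences as they were and made no call among them. It moved the count of genes called from 1 to 0 in Com against DMSO, and from 0 to 2 in Com against Mito-Lipo and to 5 in Gilteritinib against Mito-Lipo. Differences near 0 turned their sign. With quantile normalization KCNQ1OT1 was at 0.0028 in Com against DMSO. Without the filter on low values, 3 genes were called for Mito-Lipo and 2 for Gilteritinib against DMSO, 3 in Com against Mito-Lipo, 1 in Com against Gilteritinib, 3 in Gilteritinib against Mito-Lipo and 3 in the interaction. The 1 gene called in Com against DMSO was lost (0 genes) with a pseudocount of 0.1, with a mean FPKM of at least 5, with only the libraries compared and with the sense-intronic covariate.

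With 1 library left out, NEAT1 ranged from -0.34 (without Com replicate 1) to 0.32 (without DMSO replicate 1) in Com against DMSO, from -0.023 to 0.56 in Com against Gilteritinib and from -0.56 to 0.026 in the interaction. MALAT1 ranged from -0.11 to 0.14 in Com against DMSO. In the comparisons with Mito-Lipo, MALAT1 kept its direction, from 0.38 to 0.52 against DMSO, from -0.56 to -0.32 for Com and from -0.61 to -0.50 for Gilteritinib, and so did NEAT1, from 0.33 to 0.83, from -0.88 to -0.29 and from -1.11 to -0.65. KCNQ1OT1 ranged from -0.17 to 0.17 in Com against DMSO, from -0.046 to 0.30 for Mito-Lipo and from -0.16 to 0.12 for Gilteritinib against DMSO, from -0.29 to 0.040 in Com against Mito-Lipo, from -0.12 to 0.15 in Com against Gilteritinib and from -0.25 to 0.10 in the interaction. Counts of genes called ranged from 0 to 1 in Com against DMSO, Gilteritinib against DMSO and the interaction, from 0 to 36 in Mito-Lipo against DMSO, from 0 to 20 in Com against Mito-Lipo and from 0 to 41 in Gilteritinib against Mito-Lipo. The highest of these last 3 came without Mito-Lipo replicate 1.

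With replicates 2 and 3 only, MALAT1 passed in the comparisons with Mito-Lipo, at 0.56, -0.61 and -0.63. NEAT1, MALAT1 and KCNQ1OT1 were at -0.049, -0.045 and 0.0040 in Com against DMSO, and KCNQ1OT1 was at 0.022 in Gilteritinib against DMSO and -0.018 in Com against Gilteritinib. Genes called numbered 9 in Com against DMSO, 1190 for Mito-Lipo and 114 for Gilteritinib against DMSO, 1139 in Com against Mito-Lipo, 14 in Com against Gilteritinib, 1231 in Gilteritinib against Mito-Lipo and 552 in the interaction. With the sense-intronic covariate, NEAT1 was at -0.022 in Com against DMSO, and KCNQ1OT1 at -0.038 for Mito-Lipo and 0.022 for Gilteritinib against DMSO, 0.0048 in Com against Mito-Lipo, -0.055 in Com against Gilteritinib and 0.060 in Gilteritinib against Mito-Lipo. Of the list medians under other settings, 1068 moved by less than the spread behind them and 3 by more. The cause of these changes was not tested.

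Limits: 1 value per gene holds all transcripts of NEAT1, the libraries do not keep strand, cDNA was primed at poly(A), and 3 libraries per condition that differ by replicate number leave wide intervals for NEAT1. The counting error of the 3 RNAs was at most 1.37%.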
